A study of Homo sapiens with 4 samples.

Results

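The transcripts of MHC class I antigen presentation were followed in T24 cells, a line established from a human bladder carcinoma. Their 9 genes were chosen by name from the 60623 genes of the deposited table: the class I heavy chains HLA-B, HLA-C and HLA-E, the light chain B2M, the peptide transporter subunits TAP1 and TAP2, the loading factor TAPBP (tapasin), and the immunoproteasome subunits PSMB8 and PSMB9. The comparison was between 2 libraries of control T24 cells and 2 libraries of T24 cells overexpressing CBX7, a chromobox subunit of Polycomb repressive complex 1, and it asked how forced CBX7 changes the transcriptome of these cells. Cells of both groups were grown in RPMI with 10% serum. Per the study's methods, full-length CBX7 was cloned into a pCDH vector with a FLAG tag, while what the control cells carry is not given in the labels. Neither source says whether the libraries of a group came from separate cultures or clones, so p-values measure only the spread between these libraries, which may be technical.

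CBX7 checked the labels. Its level in CPM (counts scaled to the size of the library after TMM normalization) was 10.9 and 9.67 in control replicates 1 and 2 and 1774 and 1595 in CBX7 replicates 1 and 2, with a fitted log2 fold change of 7.35 (standard error 0.18, edgeR quasi-likelihood adjusted p = 0.000584). The expected counts of the libraries summed to between 20800910 and 25135488, so that a gene at 0 could still have up to 3 counts, or 0.119 to 0.144 CPM. Of 14862 genes tested, 3 had an adjusted p under 0.05 (0.0202%), and 705 had an unadjusted p under 0.05 (4.74%). Of 16 urothelial and epithelial markers, KRT7, KRT8 and KRT18 were abundant, between 853 and 1465 TPM (a relative transcript abundance scaled to gene length), whereas 8, including KRT5, CDH1, TP63 and the uroplakins, had at most 3 counts in every library. Leukocytes carry abundant class I molecules, and their defining marker PTPRC was at 0 in 3 libraries and at 0.0419 CPM in control replicate 1. The summed level of 6 leukocyte markers was 11.8 to 13.9 CPM in control and 7.65 to 9.63 CPM in CBX7 libraries, mostly CD68 (unadjusted p = 0.0258, edgeR adjusted p = 0.916), and 4 of the 6 had at most 3 counts in every library. The summed level of 4 fibroblast markers was 3.65 and 3.72 CPM in control and 4.72 and 6.53 CPM in CBX7 libraries. Both of those that could be tested, COL1A1 (unadjusted p = 0.0308, edgeR adjusted p = 0.943) and PDGFRB (edgeR adjusted p = 0.951), were higher in both CBX7 libraries in CPM (all genes: 15.4%). In TPM the COL1A1 groups overlapped (1.03 and 1.26 in control, 0.88 and 4.4 in CBX7 libraries). PDGFRB had only 14 to 25 counts. The 8 epithelial markers that could be tested had positive log2 fold changes with a median of 0.29, none past an adjusted p of 0.05. The largest were those of GATA3 (2.28, unadjusted p = 0.00778, edgeR adjusted p = 0.602) and KRT19 (1.35, unadjusted p = 0.00141, edgeR adjusted p = 0.352). The part of these marker differences in the values below was not tested. In RNA of bulk cultures, fewer expressing cells and less RNA per cell cannot be told apart.

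Class I molecules display peptides from inside a cell to CD8 T cells. The proteasome cuts proteins into peptides, and cells exposed to interferon exchange its constitutive catalytic subunits for immunoproteasome subunits such as PSMB8 and PSMB9. The TAP1-TAP2 pump carries the peptides into the endoplasmic reticulum, where tapasin bridges it to heavy chains paired with B2M. HLA-B and HLA-C are classical, highly polymorphic heavy chains, and HLA-E presents mainly leader peptides of other class I chains to receptors of natural killer cells. Many tumours lower these genes, and interferon, NF-kappa B and the coactivator NLRC5 raise them.

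In GENCODE release 29 on GRCh38, 8 members lay in the MHC on chromosome 6 and B2M lay on chromosome 15. HLA-E (ENSG00000204592) spanned 30489467 to 30494205 on the plus strand, HLA-C (ENSG00000204525) 31268749 to 31272130 on the minus strand, and HLA-B (ENSG00000234745) 31269491 to 31357188 on the minus strand, its annotated locus running into that of HLA-C. TAP2 (ENSG00000204267, 32821833 to 32838780, minus), PSMB8 (ENSG00000204264, 32840717 to 32844703, minus), PSMB9 (ENSG00000240065, 32844136 to 32859585, plus) and TAP1 (ENSG00000168394, 32845209 to 32853978, minus) lay close together. The annotated locus of PSMB9 contained that of TAP1 and overlapped that of PSMB8. TAPBP (ENSG00000231925) spanned 33299694 to 33314387 on the minus strand, and B2M (ENSG00000166710) 44711487 to 44718877 on the plus strand of chromosome 15.

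The heavy chains resemble each other so closely that a short read can fit several of them, which bears on every heavy-chain value below. The coding sequences of HLA-B and HLA-C were 91.6% identical, those of HLA-B and HLA-E 85.6% and those of HLA-C and HLA-E 84.8%. With the further heavy chains HLA-G and HLA-F, HLA-E shared identical coding stretches of 114 and 71 bases, which are not shown. The longest identical stretches of HLA-B with HLA-C and of HLA-C with HLA-E are shown in lower case from the reference transcripts. They need not be the alleles of T24, and how far T24 reads of these polymorphic genes were placed on the right gene was not tested.
HLA-B and HLA-C, coding positions 420 to 485 of both, 66 bases: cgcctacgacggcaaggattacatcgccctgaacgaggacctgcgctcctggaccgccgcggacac
HLA-C and HLA-E, coding positions 653 to 727 of HLA-C and 644 to 718 of HLA-E, 75 bases: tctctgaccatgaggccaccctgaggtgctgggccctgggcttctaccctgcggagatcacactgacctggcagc
The first of these stretches lies in the part that forms the peptide groove and the second in the part that encodes the immunoglobulin-like domain, which is the most conserved among heavy chains. Of the 50-base windows along the principal transcript, 38 of 1498 (2.54%) in HLA-B, 101 of 1487 (6.79%) in HLA-C and 131 of 2552 (5.13%) in HLA-E were identical to a window of another gene. For HLA-B the other gene was most often HLA-C (2.00% of windows), and for HLA-E it was HLA-G (2.63%). With 100-base windows the shares were 0%, 0.278% and 0.60%. B2M, TAPBP, PSMB8 and PSMB9 shared no 50-base window with another gene.

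The promoters of 8 members were found among the RefSeq promoter sequences (GRCh38.p14), HLA-E being the exception. Those of HLA-B and HLA-C are printed because both heavy chains were higher in both CBX7 libraries, that of TAP1 because it was too, and that of B2M because this gene had overlapping groups. Each shows 250 bases before a start site in the direction of transcription. Capitals mark matches, on either strand, to the core of the interferon-stimulated response element (ISRE, the letters GAAA repeated after a gap of any 2 bases) or to the kappa B consensus bound by NF-kappa B.
HLA-B promoter, chr6:31357180-31357429 (minus strand): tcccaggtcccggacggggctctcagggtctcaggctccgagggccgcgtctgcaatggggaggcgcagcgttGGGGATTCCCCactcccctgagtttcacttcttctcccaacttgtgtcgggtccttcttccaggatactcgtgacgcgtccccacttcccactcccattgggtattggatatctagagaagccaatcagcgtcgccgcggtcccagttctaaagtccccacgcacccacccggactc
HLA-C promoter, chr6:31272093-31272342 (minus strand): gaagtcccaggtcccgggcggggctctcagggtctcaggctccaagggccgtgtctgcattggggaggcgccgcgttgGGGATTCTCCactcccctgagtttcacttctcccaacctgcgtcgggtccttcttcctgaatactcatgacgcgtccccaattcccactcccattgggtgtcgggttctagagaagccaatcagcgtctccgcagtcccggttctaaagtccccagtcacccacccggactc
B2M promoter, chr15:44711267-44711516 (plus strand): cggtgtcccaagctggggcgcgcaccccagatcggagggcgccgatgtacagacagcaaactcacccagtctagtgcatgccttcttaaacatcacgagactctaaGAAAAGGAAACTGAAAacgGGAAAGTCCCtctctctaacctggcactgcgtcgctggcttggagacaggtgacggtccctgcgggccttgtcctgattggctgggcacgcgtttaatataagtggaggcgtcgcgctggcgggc
TAP1 promoter, chr6:32853705-32853954 (minus strand): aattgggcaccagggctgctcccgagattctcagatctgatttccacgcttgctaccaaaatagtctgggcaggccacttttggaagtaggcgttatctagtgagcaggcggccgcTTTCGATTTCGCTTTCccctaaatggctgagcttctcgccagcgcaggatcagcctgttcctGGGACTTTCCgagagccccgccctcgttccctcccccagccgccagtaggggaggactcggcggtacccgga
The ISRE letters were in 3.02% and the kappa B consensus in 9.96% of all 35116 promoter windows of this length. Only exact matches were counted, so a promoter without a match can still hold a variant of either element. B2M and TAP1 each held 2 overlapping ISRE matches and 1 kappa B match. HLA-B held 2 overlapping kappa B matches and HLA-C 1, neither with an ISRE match, and CCAAT, found in 32.0% of all windows, occurred 3 times in HLA-B and 4 times in HLA-C. TAPBP had 2 overlapping ISRE matches and 1 kappa B match, TAP2 had 1 ISRE match, and PSMB8 and PSMB9 had neither in their windows. The interferon-gamma letters TTCNNNGAA (6.57% of windows) were in a second window of PSMB8 and a second window of TAP1. The windows of TAP1 and PSMB9, which are transcribed away from each other, overlapped from 32853942 to 32853954.

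T24 cells expressed all 9 members, at levels that spanned the abundant light chain and the scarce transporter. In control cells, B2M led with 1739 ± 39.8 TPM (SD, n = 2), followed by HLA-E with 175 ± 2.10 TPM and HLA-C with 135 ± 5.42 TPM. HLA-B with 58.5 ± 0.0212 TPM and PSMB8 with 53.1 ± 6.19 TPM came next and did not differ beyond their spread. TAPBP (31.1 ± 1.61 TPM) and TAP2 (30.5 ± 0.431 TPM) overlapped, and PSMB9 (25 ± 1.39 TPM) and TAP1 (19.8 ± 1.28 TPM) were lowest. In CBX7 cells B2M again led with 1757 ± 5.76 TPM, HLA-C (153 ± 4.57 TPM) and HLA-E (151 ± 6.47 TPM) overlapped, and HLA-B (85.3 ± 2.33 TPM) was apart from PSMB8 (58.8 ± 4.40 TPM). TAPBP, PSMB9, TAP2 and TAP1 followed, from 29.1 down to 23.8 TPM, each overlapping its neighbours in that order. The summed TPM of the members was 2304 and 2230 in control and 2315 and 2305 in CBX7 libraries.

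**Figure D1:**
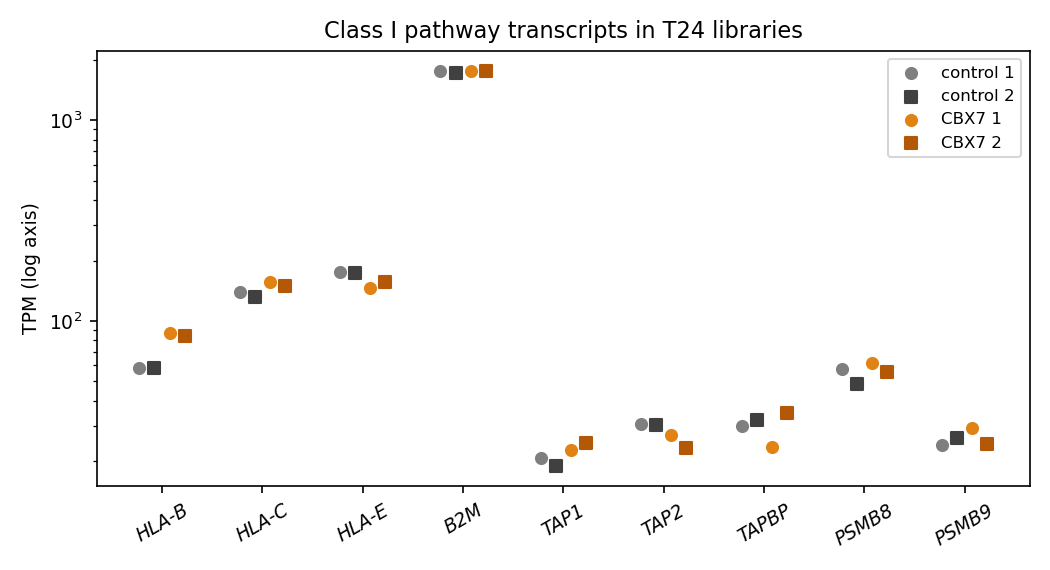
TPM of the 9 class I pathway members (log axis) in each of the 4 libraries, with control libraries in grey and CBX7 libraries in orange. B2M sits between 1711 and 1767 TPM in every library, and HLA-B sits at 58.5 TPM in both control libraries and at 87.0 and 83.7 TPM in CBX7 libraries.

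None of the 9 members passed an adjusted p of 0.05 (all genes: 0.0202%), and 1 of them, HLA-B, had an unadjusted p under 0.05, on the higher side (all genes: 3.42% higher, 1.32% lower). The fitted log2 fold change was positive for 7 members and negative for HLA-E and TAPBP, with a median of 0.28 beside 0.0017 over all genes tested. In CPM, HLA-B, HLA-C and TAP1 were higher in both CBX7 libraries than in both control libraries (3 of 9, where 15.4% of all genes did so), and none was lower in both (all genes: 14.8%). In TPM the same 3 were higher in both (all genes: 12.2%), while HLA-E and TAP2 were lower in both (all genes: 17.4%). The median depended on the unit and on the correction for gene length, falling to 0.092 in limma on log2(TPM + 1), where the median of all genes was -0.081, and to 0.030 without CBX7 replicate 1. Without CBX7 replicate 2, edgeR called 6 members (HLA-B, HLA-C, B2M, TAP1, PSMB8 and PSMB9), all higher, and 35.5% of all genes tested. Without control replicate 1 or control replicate 2 it called 0 members, beside 0.384% and 0.291% of all genes.

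**Figure D2:**
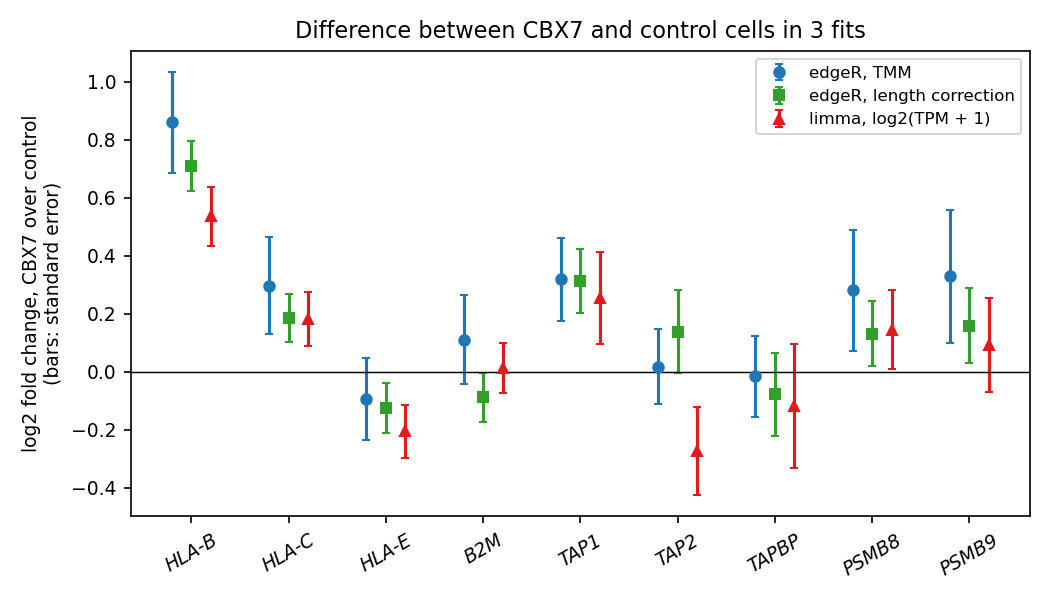
Fitted log2 fold change of CBX7 over control cells for each member in edgeR on TMM-scaled counts, in edgeR after a correction of each library for its trend with gene length, and in limma on log2(TPM + 1). Points are estimates and bars are 1 standard error. HLA-B lies highest in all 3 fits, from 0.54 to 0.86, and TAP2 is above 0 in both count fits and below 0 in the TPM fit.

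HLA-B, a classical heavy chain, had the largest difference of the members. Its expected counts were 944.29 and 777.72 in control replicates 1 and 2 and 1902.16 and 1347.55 in CBX7 replicates 1 and 2. Scaled, these were 39.6 and 37.1 CPM against 78.8 and 60.3 CPM, or 38.3 ± 1.77 against 69.5 ± 13.0 CPM (SD, n = 2). The groups did not overlap, and CBX7 replicate 1 was the highest library. The log2 fold change was 0.86 (standard error 0.17), a 1.82-fold difference, with an unadjusted p of 0.00315 that ranked 102 among the 14862 genes and an adjusted p of 0.443 in edgeR's quasi-likelihood test. The call depended on the test and on how far variance was pooled over genes. Where genes with few counts were kept, with the block alone and with a library left out, edgeR pooled it fully. Those fits had infinite prior degrees of freedom, against 3.61 in the main fit. Their adjusted p-values therefore do not measure the spread of HLA-B itself between libraries. The adjusted p was 0.0293 in DESeq2's Wald test, 0.00125 in edgeR when genes with few counts were kept, 2.94e-05 in edgeR with the replicate number as a block, 0.0730 with the length correction alone and 6.81e-06 with the block and the length correction together, while 0.451%, 1.01%, 2.43%, 0.0269% and 3.69% of all genes tested were called in those fits. Without CBX7 replicate 1 the HLA-B log2 fold change was 0.66 (edgeR adjusted p = 7.11e-07), and without CBX7 replicate 2 it was 1.04 (edgeR adjusted p = 3.08e-18), where the lone library left in the group is assumed to vary like the control libraries and 2.59% and 35.5% of all genes were called.

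In TPM, HLA-B stood at 58.53 and 58.50 in control and at 86.96 and 83.66 in CBX7 libraries, or 58.5 ± 0.0212 against 85.3 ± 2.33 TPM (SD, n = 2). The groups were again apart, and the ratio of their means was 0.54 on the log2 scale. This is smaller than the difference in counts, and the length of message by which the deposited values divide differed between groups. Count divided by TPM, scaled so that the median gene gives its deposited length, came to 1085 and 1068 bases for HLA-B in control libraries and to 1226 and 1229 bases in CBX7 libraries. The length column gives 1089 bases, and annotated coding transcripts of HLA-B include 1 of 1547 and 1 of 1089 bases. With limma on log2(TPM + 1) the HLA-B adjusted p was 0.942, in a fit that called 0.0135% of all genes.

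HLA-C, the classical heavy chain next to HLA-B on the chromosome, had 124 and 114 CPM in control and 164 and 128 CPM in CBX7 libraries. The groups did not overlap, but CBX7 replicate 2 lay close to control replicate 1, and the means of 119 ± 7.39 and 146 ± 26.0 CPM (SD, n = 2) were about an SD of the CBX7 group apart. The log2 fold change was 0.30 (standard error 0.17, edgeR adjusted p = 0.951). In TPM it was 139 and 131 against 156 and 149.9, and the groups did not overlap.

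HLA-E is a nonclassical chain. Its 305 and 289 CPM in control and 302 and 255 CPM in CBX7 libraries overlapped, with a log2 fold change of -0.09 (standard error 0.14, edgeR adjusted p = 0.951). Its TPM of 176 and 173 in control and of 147 and 156 in CBX7 libraries did not overlap, where limma on log2(TPM + 1) gave an adjusted p of 0.942.

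Further nonclassical chains were outside the 9 genes. HLA-F was scarce (3.26 to 7.46 TPM), with a log2 fold change of 0.58 (standard error 0.27, edgeR adjusted p = 0.951), and HLA-G had 0 and 5 counts in control and 1 and 0 counts in CBX7 libraries, too few to be tested.

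Reads misplaced among HLA-B, HLA-C, HLA-E, HLA-F and HLA-G move between these genes but stay within their sum. Their summed TPM was 378 and 366 in control and 396 and 397 in CBX7 libraries, or 372 ± 8.39 against 396 ± 0.587 (SD, n = 2). When the counts of these 5 genes were summed to a single feature, its log2 fold change was 0.13 (standard error 0.15, edgeR adjusted p = 0.951). Within the sum, the share of HLA-B was 15.5% and 16.0% in control libraries and 22.0% and 21.1% in CBX7 libraries, and that of HLA-E was 46.6% and 47.3% against 37.0% and 39.3%. HLA-C held 36.7% and 35.8% against 39.5% and 37.8%. None of these shares overlapped between groups. The ratio of HLA-B to HLA-C TPM was 0.422 and 0.447 in control and 0.556 and 0.558 in CBX7 libraries. These shares and ratios are descriptions with no test, and the smallest two-sided p that an exact permutation test between 2 and 2 libraries allows is 0.333.

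**Figure D3:**
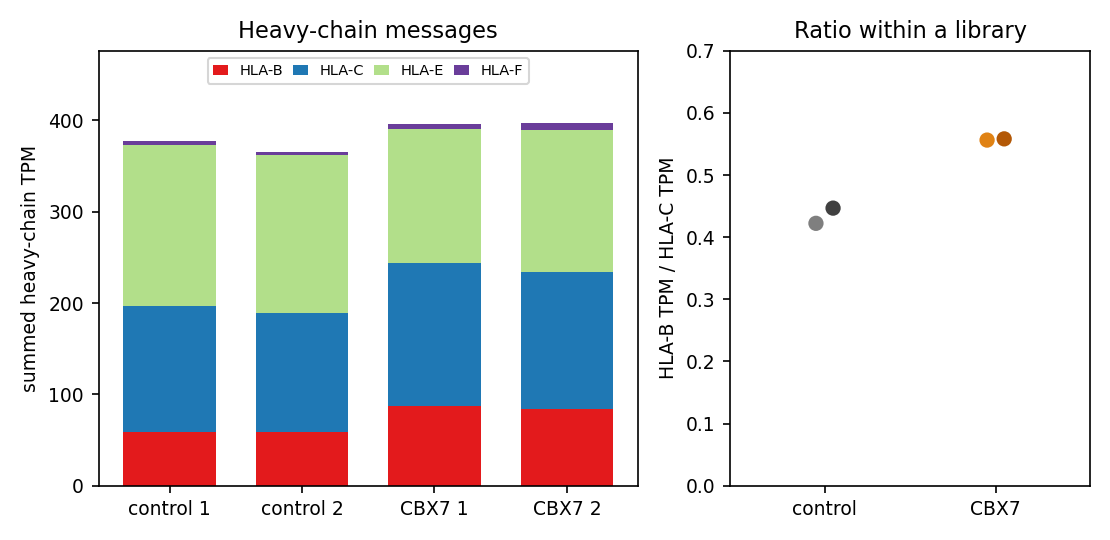
Left, TPM of HLA-B, HLA-C, HLA-E and HLA-F stacked for each library (HLA-G, at most 0.25 TPM, is not drawn), and right, the ratio of HLA-B to HLA-C TPM within each library. The sums lie between 366 and 397 TPM, and the ratio is 0.422 and 0.447 in control libraries and 0.556 and 0.558 in CBX7 libraries.

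B2M, the light chain shared by all class I molecules, was the most abundant member. It had 13945 and 11544 counts in control and 16417 and 12183 counts in CBX7 libraries, all of them whole. In CPM it was 584 and 549.8 in control and 679.8 and 545 in CBX7 libraries, so that CBX7 replicate 1 was highest and CBX7 replicate 2 lowest. The log2 fold change was 0.11 (standard error 0.15, edgeR adjusted p = 0.951), and it was -0.09 after the length correction. In TPM, 1767 and 1711 faced 1761 and 1753. B2M TPM over the summed TPM of the same 5 heavy chains was 4.68 and 4.67 in control and 4.45 and 4.42 in CBX7 libraries.

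TAP1 and TAP2 encode the subunits of the peptide pump. TAP1 was at 38.3 and 32.6 CPM in control and at 44.9 and 43.7 CPM in CBX7 libraries, or 35.5 ± 4.04 against 44.3 ± 0.850 CPM (SD, n = 2). Its groups were apart, and it was the only member besides HLA-B and HLA-C with the higher level in both CBX7 libraries. The log2 fold change was 0.32 (standard error 0.14, unadjusted p = 0.0719, edgeR adjusted p = 0.951). In TPM it was 20.7 and 18.9 against 22.8 and 24.8. TAP2 was at 66.8 and 69.4 CPM in control and at 70.9 and 66.9 CPM in CBX7 libraries, with a log2 fold change of 0.02 (standard error 0.13, edgeR adjusted p = 0.983). Its TPM was 30.8 and 30.2 in control and 27.2 and 23.2 in CBX7 libraries, so its difference was negative on the TPM scale (-0.28, log2 ratio of means) and near 0 in counts. The TAP1 to TAP2 ratio in TPM was 0.670 and 0.624 against 0.838 and 1.07.

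The TAP2 values carry the widest doubt about where reads belong. TAP2 shared 2064 of its 6390 exon bases (32.3%) with AL669918.1, an annotated protein-coding gene on the same strand, and 1964 of 2448 50-base windows of its principal transcript (80.2%). AL669918.1 had 319.67 and 222.94 counts in control and 198.22 and 315.94 counts in CBX7 libraries. The counts of the 2 genes added to 1913 and 1679.92 in control and to 1911 and 1810.98 in CBX7 libraries. The sum in CBX7 replicate 1 and the sum in control replicate 1 were whole although none of their parts was. In TPM the sums were 37.7 and 35.9 against 30.8 and 30.9. The length implied by count and TPM for TAP2 ranged from 3475 to 4924 bases over the libraries, between annotated coding transcripts of 2497 and 5676 bases. TAP1 shared 456 exon bases with PSMB8-AS1 on the opposite strand, and whether the counting used strand is not given in the sources used here.

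TAPBP, which encodes tapasin, had overlapping groups. It stood at 78.4 and 75.4 CPM in control and at 70.9 and 81.3 CPM in CBX7 libraries, with a log2 fold change of -0.01 (standard error 0.14, edgeR adjusted p = 0.986). In TPM the CBX7 libraries held both extremes, 23.45 and 34.76, around 29.99 and 32.27 in control libraries. The length implied by count and TPM for TAPBP was 3937 to 4196 bases over the libraries. Its deposited length was 1888 bases and its longest annotated coding transcript 3759 bases, so its TPM rank among the members depends on the length used.

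PSMB8 and PSMB9, immunoproteasome subunits, had overlapping groups. PSMB8 was at 41.1 and 33.6 CPM in control and at 52.7 and 38.0 CPM in CBX7 libraries, with a log2 fold change of 0.28 (standard error 0.21, edgeR adjusted p = 0.951). PSMB9 was at 13.7 and 14.3 CPM in control and at 21.3 and 13.9 CPM in CBX7 libraries, with a log2 fold change of 0.33 (standard error 0.23, edgeR adjusted p = 0.951). In both genes CBX7 replicate 1 was the highest library and CBX7 replicate 2 lay between the control libraries. Without CBX7 replicate 1, the log2 fold change was 0.030 for PSMB8 and -0.0049 for PSMB9. Without CBX7 replicate 2 it was 0.49 for PSMB8 (edgeR adjusted p = 0.000139) and 0.60 for PSMB9 (edgeR adjusted p = 0.000103), in a fit that called 35.5% of all genes.

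The exchange of subunits was read as a ratio of TPM within each library, each immunoproteasome subunit over the constitutive subunit it replaces. PSMB8 over PSMB5 was 0.225 and 0.192 in control and 0.221 and 0.228 in CBX7 libraries, or 0.208 ± 0.0234 against 0.224 ± 0.00517 (SD, n = 2). PSMB9 over PSMB6 was 0.106 and 0.120 against 0.109 and 0.113, and PSMB10 over PSMB7 was 0.167 and 0.170 against 0.191 and 0.157. All 3 ratios overlapped between groups, and the constitutive message was the more abundant in every library. PSMB5, PSMB6 and PSMB7 had log2 fold changes of 0.18, 0.27 and 0.26, close to those of the immunoproteasome subunits, and PSMB10, the remaining immunoproteasome subunit, had 0.23 (edgeR adjusted p = 0.951 for each). PSMB8 and PSMB9 shared 139 exon bases on opposite strands.

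**Figure D4:**
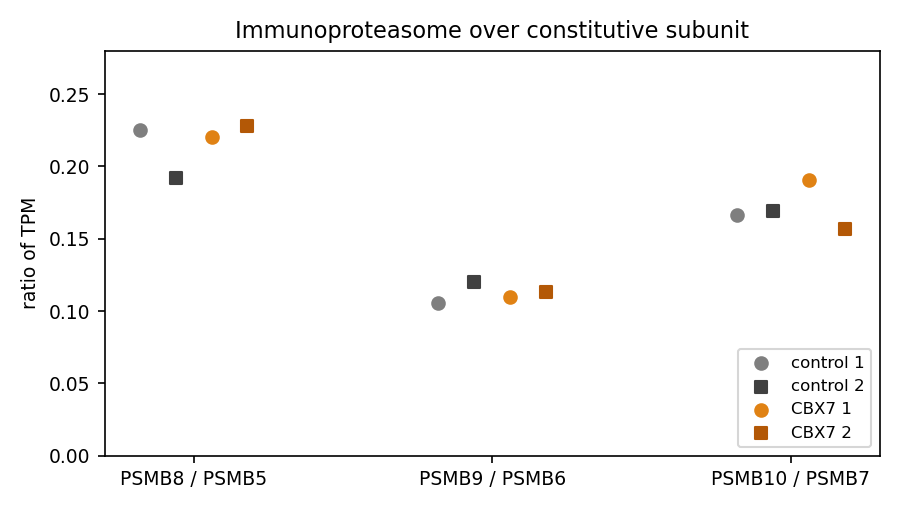
Ratio of immunoproteasome to constitutive subunit TPM within each library for the 3 catalytic subunits that are exchanged. Points are single libraries, with control in grey and CBX7 in orange, and all ratios lie between 0.106 and 0.228 with overlapping groups.

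The other genes of the pathway were taken from a list of 46, of which 44 could be tested (HLA-G and CD1D had too few counts). None passed an adjusted p of 0.05, and none had an unadjusted p under 0.05 (all genes: 4.74%). Their log2 fold changes ran from -0.33 to 0.58 with a median of 0.02, 24 of them positive and 20 negative. In CPM 4 were higher in both CBX7 libraries and 7 lower (all genes: 15.4% and 14.8%). Among 12 transcription factors and coactivators, 5 were positive and 7 negative. In CPM, 3 of the 12 (RFX5, STAT2 and RELA) were lower in both CBX7 libraries and none was higher in both. NLRC5, the class I coactivator, was at 14.2 and 15.7 CPM in control and at 16.1 and 15.2 CPM in CBX7 libraries (log2 fold change 0.07, standard error 0.15, edgeR adjusted p = 0.953). In TPM its groups did not overlap, with 5.78 and 6.36 in control and 5.47 and 5.54 in CBX7 libraries (all genes lower in both: 17.4%). IRF1, an interferon-induced activator of class I genes, was at 30.8 and 25.3 TPM against 27.4 and 30.5 TPM (log2 fold change 0.07, standard error 0.16, edgeR adjusted p = 0.953).

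Of 6 interferon receptors and kinases, none passed the test, and 5 had negative and 1 positive log2 fold changes, with a median of -0.12. In CPM, JAK1, JAK2 and IFNAR1 were lower in both CBX7 libraries (3 of 6, where 14.8% of all genes did so), and in TPM the groups overlapped for all 3. JAK1, a kinase of the type I and type II interferon receptors, was at 193 and 211 CPM in control and at 138 and 185 CPM in CBX7 libraries (log2 fold change -0.32, standard error 0.18, edgeR adjusted p = 0.951). STAT2, which carries the type I interferon signal to the nucleus, was at 31.7 and 32.7 CPM against 23.2 and 27.9 CPM (log2 fold change -0.33, standard error 0.15, edgeR adjusted p = 0.951). In STAT2 and JAK1 the lowest library was CBX7 replicate 1. Other pathway genes followed with each library left out numbered 10. They included FCGRT, STAT2, HLA-F and JAK1, which had the smallest p-values of the 44 in edgeR, so they do not stand for the pathway. Without CBX7 replicate 2 the log2 fold change was -0.47 for STAT2 and -0.55 for JAK1. It was 0.64 for HLA-F, 0.42 for PSMB5, 0.56 for PSMB6, 0.50 for PSMB7, 0.56 for PSMB10 and 0.58 for FCGRT. For NLRC5 and IRF1 it was 0.11 and 0.19.

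Of the chaperones and editors of folding, CALR, PDIA3, TAPBPL and HSPA5 were positive and CANX and UGGT1 negative, between -0.19 and 0.11. The proteasome activators were divided 2 to 2 (median 0.07) and the peptidases that trim or destroy peptides 2 to 3 (median -0.07). Of 5 class I-like chains tested, 4 were positive. FCGRT, the neonatal Fc receptor heavy chain that also pairs with B2M, was at 21.4 and 18.7 CPM in control and at 30.1 and 23.9 CPM in CBX7 libraries (log2 fold change 0.43, standard error 0.17, edgeR adjusted p = 0.951). CD274, which encodes the inhibitory ligand PD-L1, had a log2 fold change of 0.12 (standard error 0.20, edgeR adjusted p = 0.951).

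The difference was also taken between libraries of the same number. From control replicate 1 to CBX7 replicate 1 the log2 CPM ratio was 0.99 for HLA-B, 0.41 for HLA-C, 0.36 for PSMB8, 0.63 for PSMB9 and 0.23 for TAP1. From control replicate 2 to CBX7 replicate 2 it was 0.70, 0.17, 0.18, -0.04 and 0.42 for the same genes. HLA-E was negative in both (-0.02 and -0.18), while B2M (0.22 and -0.01), TAP2 (0.09 and -0.05) and TAPBP (-0.15 and 0.11) differed in sign. The libraries differed in their relation to gene length. Over the 11077 genes that averaged 100 counts or more, deposited length had a Spearman correlation of -0.62 with the replicate 1 ratio of CBX7 to control cells and of 0.04 with the replicate 2 ratio. Within groups, replicate 1 over replicate 2 gave -0.49 for the controls and -0.70 for CBX7. These are descriptions across genes that share libraries, and the part of this trend in the member differences was not tested. After the length correction the log2 fold change was 0.71 for HLA-B, 0.19 for HLA-C, -0.13 for HLA-E, -0.09 for B2M, 0.31 for TAP1, 0.14 for TAP2, -0.08 for TAPBP, 0.13 for PSMB8 and 0.16 for PSMB9.

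**Figure D5:**
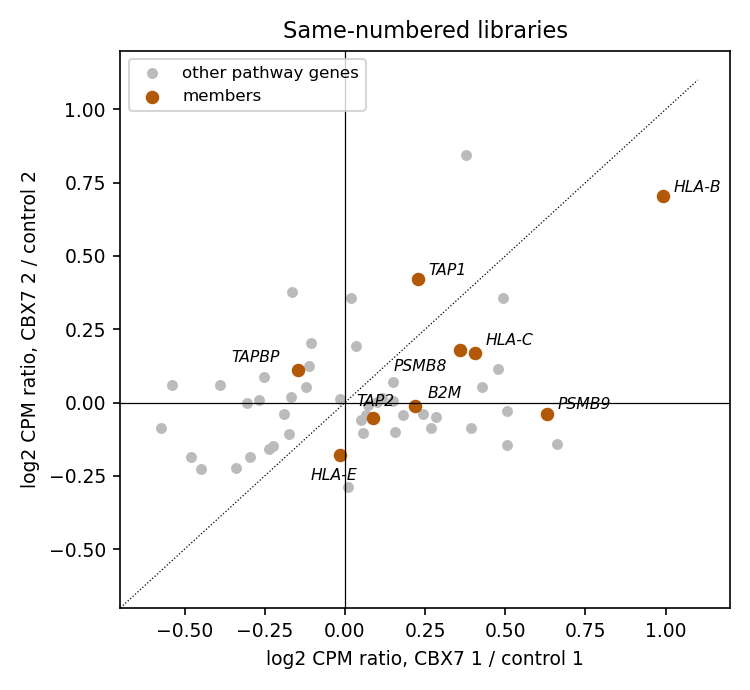
Log2 CPM ratio of CBX7 to control cells in replicate 1 (x axis) against replicate 2 (y axis) for the 9 members (orange, named) and the other tested pathway genes (grey), where the dotted line marks equal ratios. HLA-B lies farthest to the right at 0.99 and 0.70, TAP1 lies above the line at 0.23 and 0.42, and PSMB9 lies at 0.63 and -0.04.

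Counts that were not whole were found in 7 of the 9 members. HLA-B, HLA-C, TAP1, TAP2 and PSMB8 had a fractional count in all 4 libraries and HLA-E and TAPBP in 3, whereas every count of B2M and PSMB9 was whole. Over all genes tested, 7213 (48.5%) had a fractional count in some library, so fractions were not particular to this pathway. PSMB8 shared no 50-base window with another gene, but 618 of its 2997 exon bases (20.6%) lay opposite PSMB8-AS1, which also overlaps TAP1. The counts of TAP1, PSMB8 and PSMB8-AS1 added to whole numbers in all 4 libraries, 1986 and 1457 in control and 2450 and 1893 in CBX7 libraries, a sum chosen after the values were seen. PSMB9, whose counts were whole, shared 174 exon bases with PSMB8-AS1 on the same strand, and TAPBP, whose counts were fractional in 3 libraries, shared no exon base with another gene. What made each count fractional was not tested. Truncating rather than rounding the counts left the number of members called at 0.

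The genes whose profile over the 4 libraries lay nearest to the mean profile of the members, by Euclidean distance of centred log2 CPM among 11068 candidates, were YRDC (0.0103), KLHL17 (0.0157) and PMPCA (0.0188), and 383 genes lay within 0.1. Among the members themselves HLA-C was nearest to that mean (0.101) and HLA-B farthest (0.628).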

How the data were processed

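Total RNA of T24 cells was sequenced on an Illumina HiSeq instrument in 2 control and 2 CBX7 libraries. Per the labels, the random-primed libraries had inserts of about 300 bp, and the submitters' processing notes name cutadapt 1.9.1, HISAT2 2.0.1, HTSeq 0.6.1, DESeq2 and hg19. The authors deposited an expected count per gene and library, of which 88.2% to 88.9% were whole with zeros included and 66.9% to 68.6% without zeros, although HTSeq counts whole reads, so which tool made them is not given in the sources used here. The authors also deposited TPM with group means, gene lengths, and the outcome of a comparison made by the authors (a ratio, its log2 value, a raw p-value and an adjusted one), which was not used. Fractional counts can arise when reads are divided among similar genes or transcripts.

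Rounded counts that passed filterByExpr were TMM-scaled and tested with edgeR 4.0.16 (R 4.3.3; quasi-likelihood, condition as the only term, Benjamini-Hochberg adjustment over 14862 genes). The threshold was an adjusted p under 0.05. CPM was computed on the TMM-scaled library sizes. Alternatives were DESeq2's size factors, DESeq2 1.42.0 (Wald test), other filters, the other form of the quasi-likelihood method, a replicate block, a lowess correction for gene length (span 0.3), both together, truncated counts, heavy-chain counts summed, limma 3.58.1 on log2(TPM + 1) or log2(TPM + 0.1), and each library left out. Libraries of a group differed beyond sampling noise (chi-square per degree of freedom 6.49 in control, 59.7 in CBX7 cells), so none was a copy of another. Zero limits cover counting error only.

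The genes named were the members, CBX7, fixed lists of pathway and marker genes, and the 3 genes with the nearest profile. Genes that overlap a member (AL669918.1, PSMB8-AS1) and the class II genes were chosen after their values were seen. Of the fixed pathway list, 46 genes are reported here. Members and lists were chosen with earlier results of these data known. Coordinates, transcripts and sequences came from GENCODE release 29 (GRCh38) and RefSeq (GRCh38.p14), which are not the build in the processing notes, and no coordinate was taken from the deposited table.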

Additional observations from a re-analysis of the deposited data

How the results depend on the processing

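Over the alternatives with all 4 libraries, CBX7 had log2 fold changes of 6.84 to 7.41. Genes called numbered 67 in DESeq2's Wald test, 265 without a filter, 361 with the replicate block and 549 with the block and the length correction together, against 3, and 45 to 5491 when a library was left out (59 without control replicate 1, 45 without control replicate 2, 397 without CBX7 replicate 1, 5491 without CBX7 replicate 2). In the same 4 alternatives 1 member, HLA-B, was called, and 0 to 6 were when a library was left out. The median log2 fold change of the members was 0.14 with the length correction, 0.13 with the block and the length correction, and 0.092 and 0.095 in limma on log2(TPM + 1) and log2(TPM + 0.1), and it ranged from 0.030 to 0.34 with a library left out. With the heavy-chain counts summed, HLA-B, HLA-C and HLA-E give way to a single feature that also holds HLA-F and HLA-G, and the median over that feature and the other 6 members was 0.13, the value of the feature itself. On the log2(TPM + 0.1) scale the median of all genes was -0.10.

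Signs turned for B2M with the length correction (-0.087, or -0.090 with the block), for TAP2 in limma on TPM (-0.27 and -0.28) and for NLRC5 there (-0.12 and -0.14). With a library left out, the ranges that crossed 0 were -0.22 to 0.022 (HLA-E), -0.052 to 0.26 (B2M), -0.020 to 0.058 (TAP2), -0.12 to 0.085 (TAPBP), -0.0049 to 0.60 (PSMB9), -0.21 to 0.56 (PSMB10), -0.11 to 0.42 (PSMB5), -0.087 to 0.56 (PSMB6), -0.015 to 0.50 (PSMB7), -0.0058 to 0.14 (NLRC5) and -0.063 to 0.19 (IRF1). Apart from what construction fixes, the cause was not tested.

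Whether the replicate number pairs the libraries is not stated in the labels. Libraries with the same number deviated from their group means with a correlation of 0.31 over 14862 genes and of 0.61 over the 11077 that averaged 100 counts or more, with only 2 pairs. With the replicate block the number of genes called went from 3 to 361, HLA-B alone among the members passed, and no other member changed its call. That fit pooled the variance fully over genes, so its p-values do not measure the spread of single genes.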

Other observations

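MHC class II transcripts, which present peptides to CD4 T cells and are rare in epithelial cells at rest, were looked at after the other values had been seen. Of 9 genes, 3 had at most 3 counts in every library and 3 could be tested. HLA-DPA1 had 187 and 162 counts in control and 193 and 160 counts in CBX7 libraries (log2 fold change -0.04, standard error 0.17, edgeR adjusted p = 0.974). HLA-DPB1 had 458 and 337 against 674 and 375 counts (0.34, standard error 0.27, edgeR adjusted p = 0.951), with CBX7 replicate 2 between the control libraries. CD74, the invariant chain, had 72 and 48.28 against 118.33 and 74.07 counts (0.63, standard error 0.30, edgeR adjusted p = 0.951). HLA-DRA had 4, 0, 2 and 2 counts and HLA-DRB1 had 0, 3, 0 and 4 counts in control replicates 1 and 2 and CBX7 replicates 1 and 2, so the DP chains were detected where DR was at or near the limit of detection.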
